A study of Caenorhabditis elegans with 146 samples.

Results

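The genes described here encode the C. elegans machinery that shortens the poly(A) tail of mRNAs, removes their cap and degrades what remains. They are the deadenylases ccf-1 and ccr-4, their partners ntl-1, ntl-2, ntl-3 and ntl-4, the second deadenylase panl-2, the decapping genes dcap-1 and dcap-2, and the exonuclease xrn-1. They were chosen by name and not by their values, and make 10 of the 46927 genes in the deposited count table. All 10 were found, ntl-1 through its other name let-711, under which the annotation lists it.

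In the main route of mRNA decay in animals and yeast, the CCR4-NOT complex and the PAN2-PAN3 complex shorten the poly(A) tail, the decapping enzyme then cuts off the cap, and the body of the mRNA is degraded from its 5′ end. Germ cells and oocytes keep many mRNAs translationally silent, and RNA-binding proteins of the gonad, among them the PUF proteins, are known to recruit CCR4-NOT to the mRNAs they bind. Transcription stops as oocytes mature, so the stability and tail length of stored mRNAs matter for what the zygote inherits.

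ccf-1 (WBGene00000369, chromosome III, 11918828 to 11920237, minus strand) encodes the CAF1-type deadenylase of CCR4-NOT, and ccr-4 (WBGene00000376, chromosome IV, 12361542 to 12371852, plus strand) encodes its other deadenylase. ntl-1 (WBGene00002845, chromosome III, 6946718 to 6958894, plus strand) encodes the scaffold on which the complex is built. ntl-2 (WBGene00003825, chromosome II, 4372739 to 4376465, minus strand) and ntl-3 (WBGene00003826, chromosome III, 11831012 to 11846465, minus strand) encode the NOT2 and NOT3 subunits, which pair with each other in yeast and human. ntl-4 (WBGene00003827, chromosome IV, 7910575 to 7915189, plus strand) encodes the relative of NOT4, a ubiquitin ligase in yeast. panl-2 (WBGene00017951, chromosome III, 6963620 to 6968130, minus strand) encodes the relative of PAN2, the catalytic subunit of the PAN2-PAN3 deadenylase in yeast and human.

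dcap-2 (WBGene00003582, chromosome IV, 13513369 to 13521870, minus strand) encodes the enzyme that removes the cap, and dcap-1 (WBGene00021929, chromosome IV, 1052524 to 1054794, minus strand) its activating partner. xrn-1 (WBGene00012730, chromosome II, 14068907 to 14089877, plus strand) encodes the exonuclease that degrades decapped RNA from the 5′ end. Positions are those of the WBcel235 assembly, and all 10 genes are annotated as protein coding. Their merged exons are from 1311 bases (ccf-1) to 8675 bases (ntl-1) long. Exons of dcap-2 share 2.44% of their bases with afmd-2 on the other strand, and those of xrn-1 share 0.461% with col-87.

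The libraries come from the strain AZ212, whose germline carries a green fluorescent histone H2B driven by pie-1. Well-fed gravid hermaphrodites were immobilized with tetramisole and cut across the vulva, and the isolated gonad was cut in turn into oocytes and segments. Each segment or cell was harvested singly and made into an RNA-seq library from poly(A) RNA. The segments are the distal proliferative and transition zone (S1), the pachytene zone (S2), the diplotene loop (S3) and the early diakinesis zone (S4), and the cells are the third, second and most proximal oocyte before the spermatheca (F3, F2 and F1) and the zygote at the meeting of its pronuclei (P0). Of these stages 104 libraries are marked as used in the deposited quality table, 19 of S1, 17 of S2, 17 of S3, 11 of S4, 6 of F3, 13 of F2, 15 of F1 and 6 of P0. They carry 43 worm labels, where each zygote labelled as from an unknown worm counts as a separate worm. No treatment or mutant is compared, so the stages themselves are the groups, all of one strain.

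Reads counted on genes ranged from 1273040 to 73449925 per used library. Of the used libraries, the quality table gives 82 as batch A and 22 as batch B, and each stage has 2 to 5 from batch B. Somatic sheath cells were drawn up along with segments and oocytes: the summed level of 8 sheath markers had a median of 62.2 CPM in S1 (9.65 to 228), 1649 CPM in F1 (474 to 5009) and 14.2 CPM in P0 (0.772 to 84.1). The summed level of 5 oocyte markers rose from a median of 953 CPM in S1 to 11830 CPM in F1. For 2 spermatheca markers the median was 8282 CPM in F1, against stage medians of at most 7.17 CPM in the other stages. Single libraries of those stages reached 1865 CPM in F2, 435.1 CPM in S4 and 395.6 CPM in S3. Sperm markers had stage medians of at most 0.973 CPM for 5 genes, with single libraries up to 195.9 CPM in F1 and 102.5 CPM in S4. Intestine markers had stage medians of 5.55 to 355 CPM, with single libraries up to 7609 CPM in S1, 5732 CPM in F1 and 5644 CPM in S3. Libraries of the distal gonad held fewer detected genes: within batch A, the number of genes reaching 1 TPM was 4778 to 6247 for S1 libraries, 4852 to 6587 for S2, 6524 to 8712 for S3 and 7842 to 10139 for F1. In S1 and F1 of batch A these ranges did not overlap, so a change between S1 and F1 and a change in detection rate cannot be told apart within that batch. In these bulk segments, fewer cells that express a gene and less of its RNA per cell cannot be told apart either.

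All 10 genes were read in all 104 used libraries. Per length, in TPM (the authors' length-scaled Salmon estimates), ccf-1 had the highest median over the used libraries, 132.9 TPM (4.86 to 358), followed by ntl-2 at 79.7 TPM (9.14 to 369). dcap-1 (42.0 TPM), ntl-3 (35.2 TPM), ntl-1 (33.2 TPM), dcap-2 (25.1 TPM), ccr-4 (22.3 TPM), panl-2 (21.04 TPM) and ntl-4 (17.7 TPM) lay closer together, and the ranges of these 7 genes over libraries overlapped. xrn-1 stood lowest, with a median of 2.18 TPM (0.0477 to 9.32). Its median count was 32 reads per library (2 to 780), against medians of 195.5 (ntl-3) to 721.5 (ccf-1) for the other 9, so values of xrn-1 carry the most counting error.

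Between stages, levels of a gene were compared in CPM, the reads of a gene scaled to a common library size with TMM factors over the 104 used libraries. In batch A, which holds 4 to 15 libraries per stage, the highest stage median of ccr-4 was 3.74 times its lowest, that of panl-2 3.34 times, that of ntl-2 2.80 times, that of dcap-2 2.80 times and that of xrn-1 2.26 times. For ntl-3 (1.93 times), ccf-1 (1.71 times), ntl-4 (1.58 times), ntl-1 (1.47 times) and dcap-1 (1.45 times) the stage medians lay closer together. Of the 5 genes whose stage medians differed most, ccr-4, panl-2, ntl-2 and dcap-2 were lowest in S1, and xrn-1 was highest there.

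**Figure D1:**
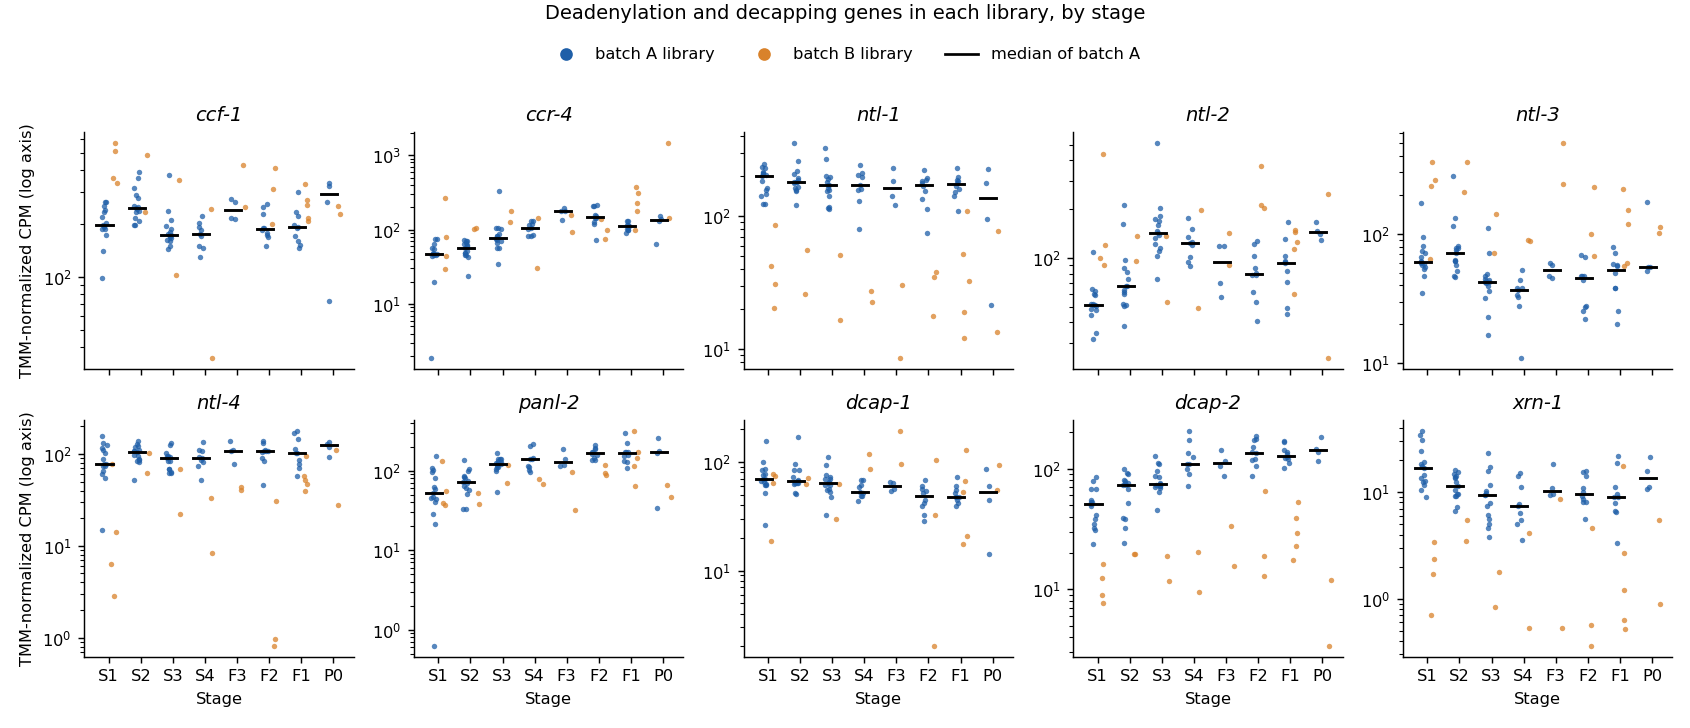
CPM (log axis) of the 10 genes in each used library by stage from S1 to P0, with batches A and B in 2 colors and a bar at the batch A median. In batch A, ccr-4 runs from a median of 47.3 CPM in S1 to 177 CPM in F3 and dcap-2 from 50.8 CPM in S1 to 142 CPM in P0, while ntl-1 stays between 137 and 201 CPM.

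The design asks which genes change from one stage to the next, and the authors' model, a negative binomial fit with batch and detection rate as covariates, was followed with edgeR's quasi-likelihood F test. Calls required a change above 1.5-fold together with an adjusted p under 0.05 (Benjamini-Hochberg, over all genes tested). None of the 10 genes was called in any of the 7 comparisons of neighboring stages by edgeR. Of all genes tested, 17% were called from S1 to S2, 11.2% from S2 to S3, 5.94% from S3 to S4, 2.43% from S4 to F3, 0% from F3 to F2, 0.402% from F2 to F1 and 5.79% from F1 to P0. At an unadjusted p under 0.05 edgeR gave 3 of the 10 genes from S1 to S2, 0 from S2 to S3, 1 from S3 to S4, 4 from S4 to F3, 3 from F3 to F2, 0 from F2 to F1 and 0 from F1 to P0. Over all genes tested that cutoff held, in the same order, for 1804 of 5253, 1594 of 6218, 1598 of 7071 and 1225 of 7126. From F3 on it held for 681 of 7197, 279 of 6958 and 1059 of 7552. DESeq2 with the same covariates called 0 of the 10 in each of the 7 comparisons, where it called 18.7%, 13.2%, 10.5%, 5.35%, 0%, 0.618% and 8.9% of all genes, in order from S1 to P0. limma on log2(TPM + 1) called 1 from S3 to S4 (dcap-2, 0.72 in log2, adjusted p = 0.0248) and 1 from S4 to F3 (ntl-3, 1.62, adjusted p = 0.0253), and 0 in the other 5 comparisons, where it called 20.1%, 12.9%, 15.2%, 1.84%, 0%, 0.566% and 4.97% of all genes, in the same order. The median log2 change of the 10 genes was between -0.19 (F3 to F2) and 0.34 (S4 to F3), and that of all genes tested between -0.04 and 0.07.

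From the distal zone into pachytene (S1 to S2), no member was called, and the edgeR estimates with the detection rate were all under 1.5-fold. The 3 genes with an unadjusted p under 0.05 were ccf-1 (0.29 in log2, SE 0.13, adjusted p = 0.106), dcap-2 (0.42, SE 0.19, adjusted p = 0.113) and ntl-2 (0.46, SE 0.23, adjusted p = 0.144), from edgeR. So had 1804 of 5253 genes tested. In the 11 worms that gave both segments, dcap-2 was higher in S2 in 10 and ntl-2 in 9, with median within-worm changes of 0.63 and 0.29 in log2. In batch A alone edgeR called ntl-2 (0.59, SE 0.21, adjusted p = 0.0381) as higher and xrn-1 (-0.70, SE 0.24, adjusted p = 0.0259) as lower in S2, where 19.5% of genes were called.

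At the bend of the gonad (S2 to S3) the calls depended on the detection rate term. Without it, edgeR called 4 of the 10 genes: ntl-2, panl-2 and ccr-4 rose and ntl-3 fell, where 31.8% of all genes were called. With it, none of the 4 was called. Every batch A library of S2 had at most 6587 detected genes and every one of S3 at least 6524, so the ranges barely overlapped, and a change between these stages and a change in detection rate can hardly be told apart within that batch. The summed sheath markers had medians of 71.3 CPM in S2 and 143.1 CPM in S3, and their part in these changes was not tested.

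ntl-2, the NOT2 subunit, stood at 38.01 CPM in the lowest, 67.4 in the median and 211 in the highest of the 17 S2 libraries, and at 53.8, 138.7 and 513 CPM in the 17 of S3. Most S3 libraries lay above the S2 median, and the groups overlapped. Its change was 0.92 in log2 without the detection rate (SE 0.24, edgeR adjusted p = 0.00174) and 0.50 with it (SE 0.49, adjusted p = 0.573). With worm as a block it was 1.26 (SE 0.15, adjusted p = 2.36e-05, 9 worms, 31.7% of genes called), and 1.5 (SE 0.50, adjusted p = 0.523) when the detection rate was kept in that fit too, where 0 genes of 6128 were called and 515 had an unadjusted p under 0.05. Within batch A it was 1.02 without the detection rate, and within batch B, with 2 libraries a stage, -0.37 (SE 0.65). In the 9 worms that gave both segments, all of batch A, ntl-2 was higher in S3 in 9 of 9, by 0.56 to 1.66 in log2. The share of all genes with the same direction in each of these worms was not computed.

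ntl-3, the NOT3 subunit and the known partner of NOT2, had changes of the opposite sign between the same segments. It stood at 46.1, 75.7 and 362 CPM (lowest, median and highest) in S2 and at 16.5, 43.3 and 143 CPM in S3, with overlapping ranges. Its change was -0.95 without the detection rate (SE 0.23, edgeR adjusted p = 0.00068) and -0.50 with it (SE 0.45, adjusted p = 0.527). It was -0.85 with worm as a block and no detection rate (adjusted p = 0.00893), -0.93 in batch A and -1.51 in batch B. Within worms ntl-3 was lower in S3 in 8 of 9, with a median change of -0.84.

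The deadenylase genes panl-2 and ccr-4 were the other calls without the detection rate. panl-2 stood at 32.7, 70.2 and 138 CPM in S2 and at 54.3, 120.4 and 167 CPM in S3, overlapping, and its change was 0.79 (SE 0.16, edgeR adjusted p = 7.05e-05) without and 0.25 (SE 0.34, adjusted p = 0.711) with the detection rate. ccr-4 stood at 23.5, 60.3 and 104 CPM in S2 and at 34.2, 81.1 and 328 CPM in S3, overlapping, and its change was 0.77 (SE 0.20, adjusted p = 0.00156) without and 0.82 (SE 0.43, adjusted p = 0.228) with it. The estimate for ccr-4 thus kept its size and its error grew, while that for panl-2 shrank. With worm as a block and no detection rate, panl-2 was called (0.83, adjusted p = 0.00415) and ccr-4 was not (0.50, adjusted p = 0.13). Within batch B the changes were 0.89 and 0.44. ccf-1, the most abundant of the deadenylase genes, had a change of -0.45 without the detection rate (adjusted p = 0.0107), which is under 1.5-fold and was not called, and 0.16 with it.

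On the TPM scale the median shift over genes was larger. Over 9115 genes, the median change of the stage means from S2 to S3 was 0.19 in log2 (CPM + 1) and 0.51 in log2 (TPM + 1). In the limma fit on TPM with the detection rate the median over all genes was -0.37. In that fit ntl-2 (0.32, adjusted p = 0.646), ccr-4 (0.17, adjusted p = 0.803) and ntl-3 (-1.34, adjusted p = 0.0589) kept the sign they had in CPM, and panl-2 was at -0.23 (adjusted p = 0.742). The median of panl-2 in TPM was 10.9 in S2 and 30.7 in S3.

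**Figure D2:**
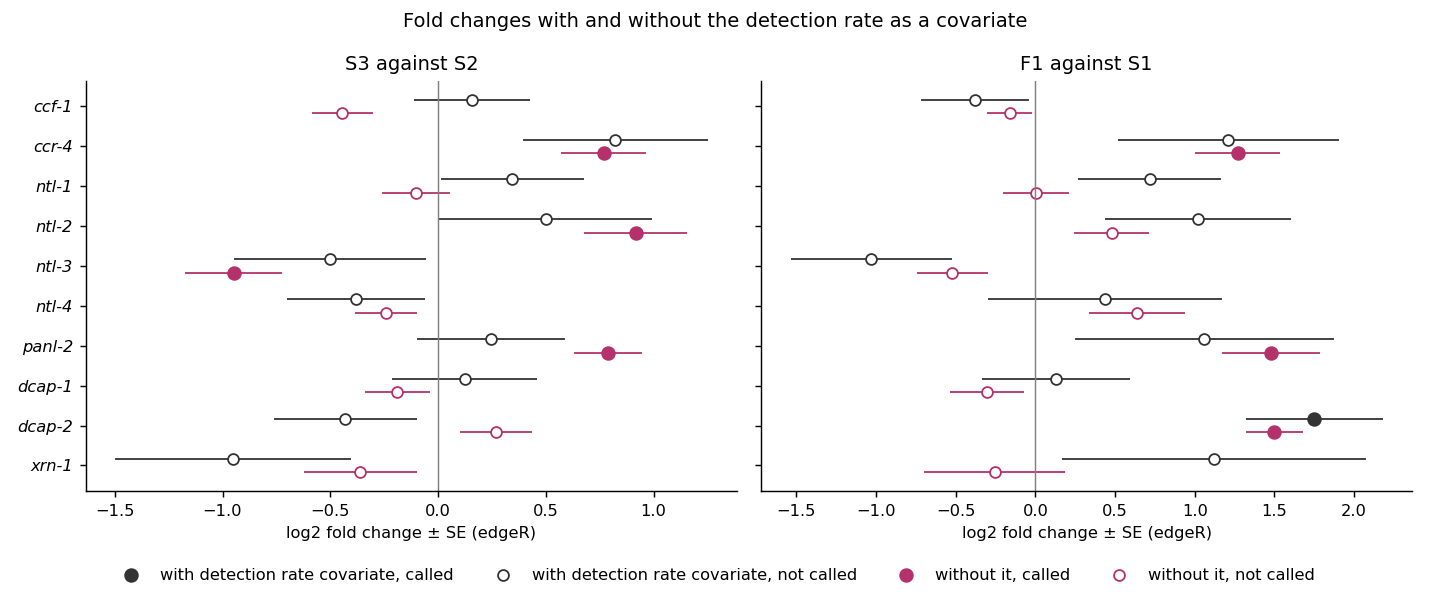
Log2 fold change of each of the 10 genes by edgeR, with the detection rate covariate and without it, from S2 to S3 and from S1 to F1; bars are ± 1 SE, and filled points were called. From S2 to S3 the point for ccr-4 stays near 0.8 in both fits, while that for panl-2 moves from 0.25 to 0.79, and from S1 to F1 dcap-2 stays at 1.75 and 1.5.

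**Figure D3:**
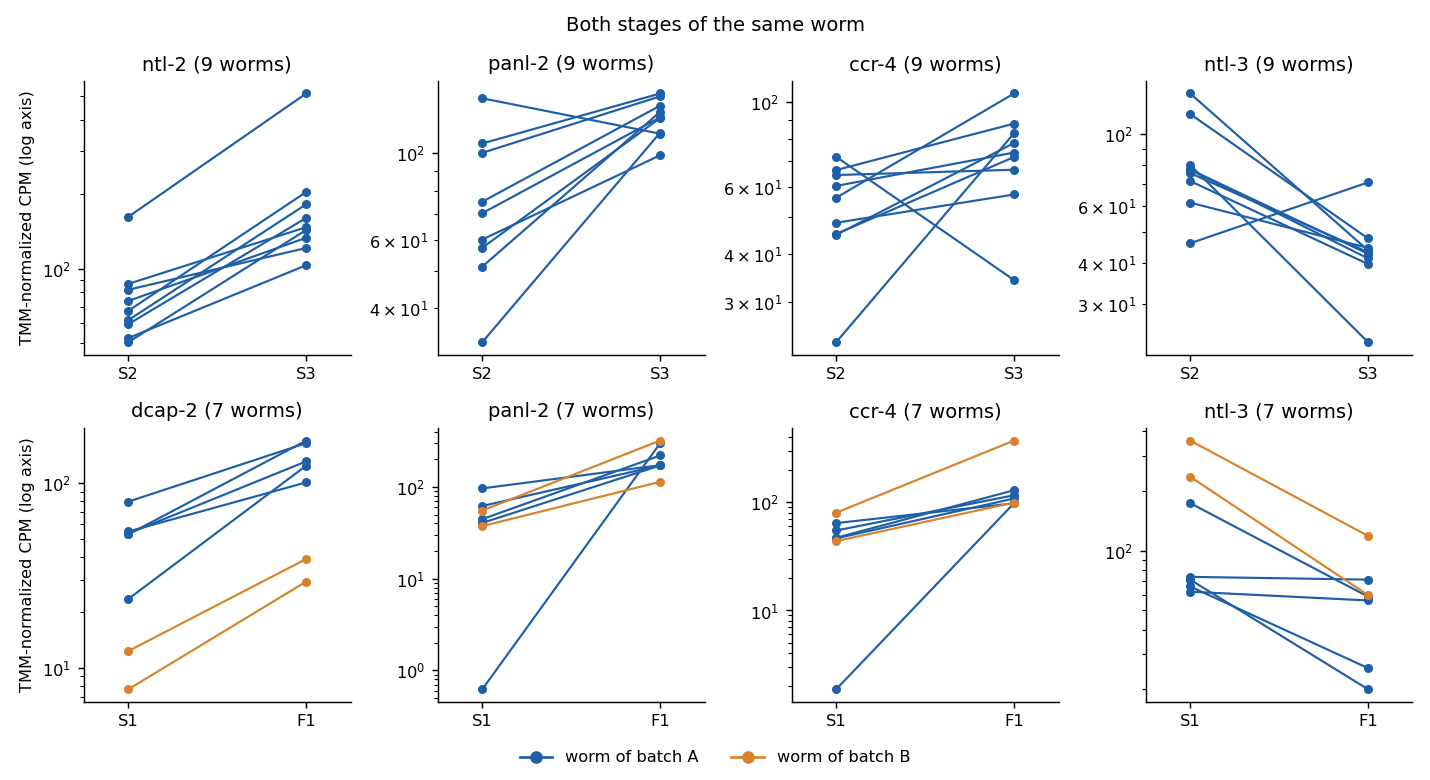
CPM (log axis) of single worms that gave both stages, with 1 line per worm: ntl-2, panl-2, ccr-4 and ntl-3 from S2 to S3 (9 worms) and dcap-2, panl-2, ccr-4 and ntl-3 from S1 to F1 (7 worms). The lines of ntl-2 rise in 9 of 9 worms and those of dcap-2 in 7 of 7, while ntl-3 falls in 8 of 9 and in 7 of 7.

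Between S3 and S4, dcap-2 was the 1 member with an unadjusted p under 0.05, where 1598 of 7071 genes tested had one. It stood at 11.8, 73.5 and 126.6 CPM (lowest, median and highest) in S3 and at 9.54, 108.8 and 207 CPM in S4, with overlapping ranges, and its change of 0.40 (SE 0.17) had an edgeR adjusted p of 0.159. In batch A the medians were 74.4 and 109.1 CPM. The other 9 genes had changes between -0.39 (ntl-2) and 0.04 (panl-2).

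From S4 to the first singly taken oocyte (F3), 4 members had an unadjusted p under 0.05, all with higher levels in F3, and none passed the threshold. Of all genes tested, 1225 of 7126 had such a p. ntl-3 had the largest change, 0.94 in log2 (SE 0.27, unadjusted p = 0.00238, edgeR adjusted p = 0.0728), followed by ccf-1 (0.74, SE 0.27, adjusted p = 0.156), ccr-4 (0.63, SE 0.24, adjusted p = 0.181) and ntl-4 (0.52, SE 0.22, adjusted p = 0.219). ntl-3 stood at 11.0, 38.1 and 89.9 CPM in the 11 S4 libraries and at 45.4, 58.8 and 506 CPM in the 6 of F3, and the highest 2 of these 6 were the batch B libraries, at 244 and 506 CPM. Without the higher of them, from worm H, its change was 0.78 (adjusted p = 0.171). ccr-4 stood at 82.1 to 130.5 CPM in the 9 batch A libraries of S4 and at 136.4 to 193.8 CPM in the 4 of F3, so that these libraries did not overlap; 0.987% of 9115 genes were likewise higher with no overlap. In batch A alone the edgeR change of ccr-4 was 0.58 (SE 0.17, adjusted p = 0.0874). With worm as a block (3 worms, 8.75% of genes called) ccf-1 was called, with a change of 0.84 (SE 0.22, adjusted p = 0.0226), and ntl-3 had 0.38 (adjusted p = 0.343). The same block without the detection rate gave ccf-1 1.26 (SE 0.79, adjusted p = 0.949) and called 0 of 6891 genes, with 132 at an unadjusted p under 0.05.

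Among the oocytes no member was called, in steps where at most 0.402% of all genes were. From F3 to F2 the lowest unadjusted p belonged to dcap-1 (-1.29 in log2, SE 0.37, edgeR adjusted p = 0.482), ntl-4 (-1.24, SE 0.42, adjusted p = 0.482) and ntl-3 (-0.69, SE 0.32, adjusted p = 0.52). In batch A dcap-1 had medians of 59.6 CPM in F3 and 48.3 CPM in F2, and ntl-4 of 108.7 and 106.9 CPM. From F2 to F1 the changes ran from -0.10 (dcap-2) to 0.54 (ntl-4), each with an adjusted p of 0.999. In batch B ntl-4 stood at 0.810 to 30.7 CPM in the 3 F2 libraries and at 40.03 to 94.5 CPM in the 5 of F1, with no overlap, as for 2.74% of 9115 genes that were higher in F1 in that batch.

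Across the whole gonad, from the distal end to the most proximal oocyte (S1 to F1), dcap-2 was the 1 member called, where 23.8% of all genes were. The gene for the decapping enzyme stood at 7.68 CPM in the lowest, 40.9 in the median and 85.3 in the highest of the 19 S1 libraries, and at 17.5, 119.1 and 169.9 CPM in the 15 of F1. In batch A its S1 libraries (23.6 to 85.3 CPM) all lay below its F1 libraries (100.9 to 169.9 CPM), and in batch B the 4 S1 libraries (7.68 to 16.3 CPM) all lay below the 5 of F1 (17.5 to 52.6 CPM), as for 12.2% of 9115 genes in that batch. ccf-1 also had no overlap in batch B, in the other direction, as for 4.55% of genes. The edgeR change of dcap-2 was 1.75 in log2 (SE 0.43, 3.36-fold, adjusted p = 0.00229), and DESeq2 (1.90, 29.2% of genes called) and limma on TPM (1.76, 23.9%) called it as well. Without the detection rate it was 1.5 (SE 0.18, adjusted p = 4.11e-09), in batch A 1.6 (adjusted p = 0.0117, 26.1% of genes called) and in batch B 1.44 (adjusted p = 0.219).

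In the 7 worms that gave both S1 and F1, dcap-2 was higher in F1 in 7 of 7, by 0.87 to 2.35 in log2. The share of all genes with the same direction in each of these worms was not computed. With worm as a block its change was 1.67 without the detection rate (SE 0.27, adjusted p = 0.000413, 49.8% of genes called) and 1.06 with it (SE 1.24, adjusted p = 0.739), where 0 of 5844 genes were called and 907 had an unadjusted p under 0.05. The sheath markers rose over the same stages, and their part in the change was not tested. Over all mapped libraries, used or not, dcap-2 was not called (0.91, edgeR adjusted p = 0.0714) and ccf-1 was, as lower in F1 (-1.12, SE 0.36, adjusted p = 0.0116), where 39.4% of genes were called.

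The other members differed less surely between S1 and F1. ccr-4 in batch A also separated the stages, at 1.87 to 74.3 CPM in S1 and 91.3 to 132 CPM in F1, so that 2 of the 10 genes had no overlap there, against 16.1% of 9115 genes that were higher with no overlap. Its change was 1.21 with the detection rate (SE 0.69, edgeR adjusted p = 0.223) and 1.27 without (SE 0.27, adjusted p = 8.11e-05). panl-2 stood at 0.622, 52.1 and 152 CPM in S1 and at 64.5, 158.5 and 320.5 CPM in F1, overlapping, with a change of 1.06 (SE 0.81, adjusted p = 0.381) with and 1.48 (SE 0.31, adjusted p = 7.01e-05) without the detection rate. Without it 59.2% of all genes were called. ntl-3 had medians of 64.6 CPM in the 19 S1 libraries and 57.2 CPM in the 15 of F1, with overlapping ranges. The log2 ratio of its medians was -0.17 over both batches, -0.21 in batch A and -1.06 in batch B. Within worms, panl-2 and ccr-4 were higher in F1 in 7 of 7 and ntl-3 was lower in 7 of 7. The median changes in these worms were 2.06, 1.21 and -1.55. The part of sheath and spermatheca RNA in these changes was not tested.

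One library decides part of this. The S1 library of worm 15 held 1 read of panl-2 and 3 of ccr-4. When it was left out, edgeR with the detection rate called 3 members (25.5% of genes called): dcap-2 (1.91, adjusted p = 0.000401), ccr-4 (1.47, adjusted p = 0.042) and ntl-3, which fell by 1.43 (adjusted p = 0.0251).

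Over all 7 stages from S1 to F1 in 1 fit, edgeR called 3 of the 10 genes as changed with the detection rate in the model, where 58% of all genes were called. They were dcap-2 (adjusted p = 0.00196), ntl-3 (adjusted p = 0.00336) and ntl-2 (adjusted p = 0.00387). Relative to S1, the fitted level of ntl-2 was highest in S3 (1.252 in log2) and that of ntl-3 lowest in S4 (-1.05). ccr-4 had a peak of 1.27 in F3 and an adjusted p of 0.0572, and was called by DESeq2 (adjusted p = 0.0121, 63.1% of genes called), by limma (0.00182, 50% of genes), with median-of-ratios scaling (0.0218, 60.6% of genes) and in batch A alone (0.000488, 59.1% of genes). Without the detection rate 7 of the 10 were called (77% of genes), leaving out ntl-1, ntl-4 and xrn-1. With worm as a block 1 was called (40.6% of genes), ntl-2 with an adjusted p of 0.00439.

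At fertilization (F1 to P0) no member was called, and the changes ran from -0.51 (dcap-2, SE 0.40, edgeR adjusted p = 0.655) to 0.77 (ccr-4, SE 0.43, adjusted p = 0.464). ccr-4 stood at 91.3, 114.7 and 373 CPM in F1 and at 63.3, 142.3 and 1468 CPM in P0, with the highest value in 1 batch B zygote. Without that zygote the change was -0.01, and in batch A 0.28. dcap-2 stood at 116.7 to 181.2 CPM in the 4 P0 libraries of batch A, overlapping F1 (100.9 to 169.9 CPM). In the 2 of batch B it stood at 3.39 and 12.02 CPM, below all 5 of F1 (17.5 to 52.6 CPM), as for 7.73% of 9115 genes in that batch. The sample labels name both of these zygotes P0, and their stage reads Unknown in the quality table. ntl-1, the scaffold, stood at 12.1, 152.3 and 232 CPM in F1 and at 13.5, 86.7 and 227 CPM in P0, overlapping, with a change of -0.33 (SE 0.46, adjusted p = 0.842). Of the 8 sheath markers, 6 were called over the same step, and all 6 fell.

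Whether mRNAs for subunits of one complex, or of the 2 deadenylase complexes, kept their proportions was asked with log2 ratios within a library. Each ratio was of 2 genes' TPM values (each plus 1). The samples include sheath cells, and protein was not measured. A two-sided test permuted stages within each batch and held no detection rate. Over 6 such tests, adjusted by Benjamini-Hochberg, ccf-1 exceeded ccr-4 by 3.47 ± 0.86 in log2 TPM in S1 (SD, n = 19) and by 2.11 ± 0.60 in F1 (SD, n = 15), a difference of -1.37 (permutation p = 1e-05, the smallest the 100000 draws can give, adjusted p = 6e-05). ccf-1 was the higher of the pair in 19 of 19 S1 libraries and 15 of 15 F1 libraries. Batch A alone gave a difference of -1.10 and batch B alone -2.02 (exact adjusted p = 0.0714). How common such shifts are among other pairs of genes was not tested. By edgeR without the detection rate, 59.2% of all genes were called from S1 to F1.

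Within the decapping pair, the enzyme's gene gained on its partner's. dcap-2 relative to dcap-1 was at -1.81 ± 1.00 in log2 TPM in S1 (SD, n = 19) and at -0.26 ± 1.17 in F1 (SD, n = 15), a difference of 1.56 (permutation p = 0.00025, adjusted p = 0.0005). In S1 dcap-2 exceeded dcap-1 in 1 of 19 libraries and in F1 in 9 of 15. In batch A the mean ratio went from -1.63 to 0.33, a difference of 1.96, and in batch B from -2.51 to -1.44, a difference of 1.07 (exact adjusted p = 0.267). The level of dcap-1 itself had stage medians between 44.7 and 69.4 CPM, with 69.4 CPM in S1 and 47.8 CPM in F1. Within worms dcap-1 was lower in F1 in 6 of 7, with a median change of -0.66 in log2 CPM.

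The ratio of panl-2 to ccf-1, the catalytic genes of the 2 deadenylase complexes, was at -3.58 ± 1.07 in log2 TPM in S1 (SD, n = 19) and at -2.09 ± 0.51 in F1 (SD, n = 15), a difference of 1.5 (permutation p = 4e-05, adjusted p = 0.00012). It was lower again in P0, at -2.80 ± 0.72 (SD, n = 6), a difference of -0.72 from F1 (exact permutation p = 0.00314, adjusted p = 0.00471), with -0.485 from batch A alone (exact adjusted p = 0.0495) and -1.18 from batch B alone (exact adjusted p = 0.143). For ccf-1 over ccr-4 the F1 to P0 difference was -0.39 (exact adjusted p = 0.37), and for dcap-2 over dcap-1 -0.57 (exact adjusted p = 0.348), with 0.36 from batch A alone and -2.42 from batch B alone (exact adjusted p = 0.348 and 0.143). In all 104 used libraries panl-2 stayed below ccf-1.

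**Figure D4:**
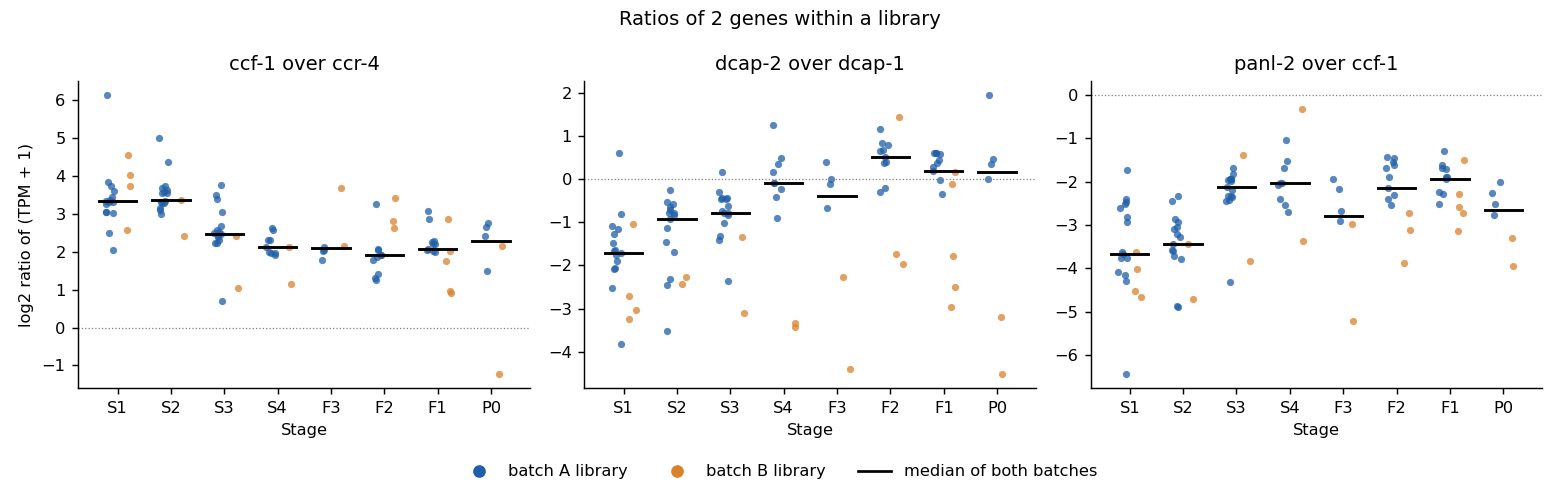
Log2 ratio of TPM (each plus 1) in each used library by stage for ccf-1 over ccr-4, dcap-2 over dcap-1 and panl-2 over ccf-1, batches in 2 colors, with a bar at the stage median; the line at 0 marks equal TPM. The median of ccf-1 over ccr-4 falls from 3.36 in S1 to 2.08 in F1, that of dcap-2 over dcap-1 rises from -1.72 to 0.20, and panl-2 over ccf-1 stays below 0.

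The batches differed strongly for some of these genes. Averaged over stages, batch B was lower than batch A by 2.49 in log2 CPM for dcap-2, by 2.39 for ntl-1, by 1.92 for xrn-1 and by 1.75 for ntl-4, and higher by 1.51 for ntl-3. Of all genes, 4.11% had a lower batch difference than dcap-2 and 4.81% a lower one than ntl-1, and 94.8% lay below ntl-3. Among all genes the median batch difference was 0.00 for 2284 genes with short exons (64 to 960 bases in all) and -0.66 for 2278 with long ones (2276 to 56044 bases). ntl-1, xrn-1, dcap-2, ntl-4, ccr-4 (0.49), panl-2 (-0.63) and ntl-3 fall among the long genes. The part of exon length in the batch differences was not tested.

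**Figure D5:**
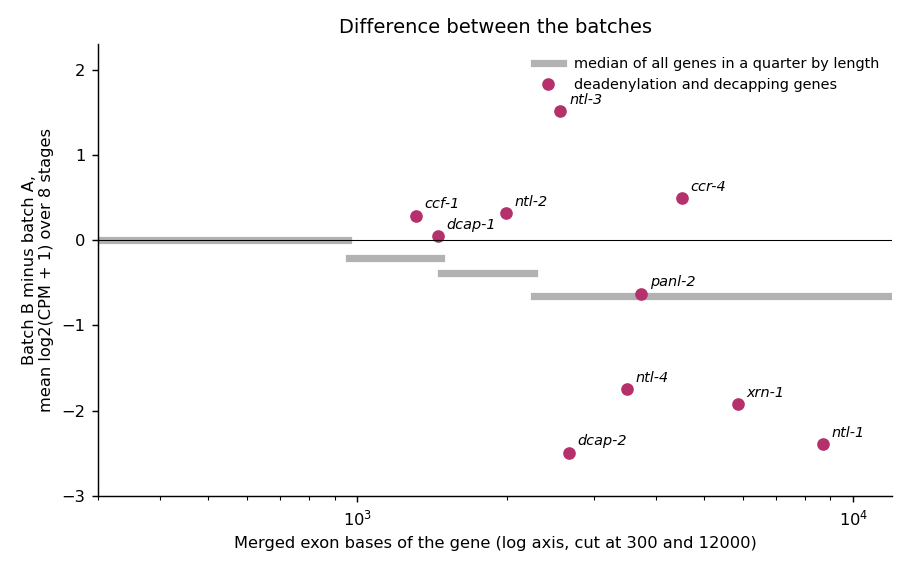
Mean difference between batch B and batch A in log2 (CPM + 1) over the stages for each of the 10 genes against exon length, beside the medians of all genes in 4 classes of length. dcap-2 at -2.49 and ntl-1 at -2.39 lie far below the median of their class, -0.66, and ntl-3 at 1.51 lies above it.

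Other genes of the same pathways had most of their calls between S1 and S2, where 17% of all genes were called. There edgeR called 6 of 15 decapping activators and related genes. car-1 (1.33 in log2, adjusted p = 2.06e-05) and cgh-1 (1.29, adjusted p = 0.000117), the genes for an LSM14-type protein and a DDX6-type helicase that form RNA granules with stored germline mRNAs, rose, as did ifet-1 and patr-1, while xrn-2 (-0.87, adjusted p = 0.0039), a nuclear 5′ exonuclease, and lsm-5 fell. Of 7 other deadenylation genes, panl-3 (1.09, adjusted p = 0.00456), the relative of PAN3, rose, and parn-2, pab-1 and pab-2 fell, pab-2 most (-1.96, adjusted p = 0.0127). pab-1 and pab-2 encode poly(A)-binding proteins. Of 13 tested exosome and Ski genes 3 fell, exos-7 (-0.84, adjusted p = 0.0107), exos-9 and crn-5. Of 9 nonsense-mediated decay genes edgeR called 0 here, with 2 at an unadjusted p under 0.05, and DESeq2 and limma called 0 as well. Such a p was found by edgeR for 1804 of 5253 genes tested. Of 4 genes for miRNA effectors 1 was tested here, and 0 were called by edgeR, DESeq2 or limma, with 0 at an unadjusted p under 0.05 by edgeR. The median change was -0.64 for the 7 deadenylation genes and 0.13 for the 15 decapping genes, against -0.04 for all genes tested.

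In later steps these lists had fewer calls, as did all genes (11.2% from S2 to S3 and at most 5.94% in each later step). lsm-1 (1.21, edgeR adjusted p = 0.04) and lsm-3 (1.06, adjusted p = 0.0237), subunits of the Lsm ring, rose from S2 to S3, and ttc-37, a Ski complex gene, fell from S3 to S4 (-1.27, adjusted p = 0.0315). pab-1 fell from S4 to F3 (-2.09, adjusted p = 0.0164), and pab-2 from F1 to P0 (-2.66, adjusted p = 0.0307). panl-2 had a change of 0.05 from S1 to S2 (adjusted p = 0.927) where panl-3, its partner in other species, had 1.09, and this difference was not itself tested. From S1 to F1 edgeR called patr-1 and the Argonaute gene alg-2 as higher, pab-1, exos-1, exos-7 and exos-8 as lower, and 0 of the 9 nonsense-mediated decay genes, with 2 at an unadjusted p under 0.05 and 1 called by DESeq2. Over all genes tested, 2097 of 6139 had such a p by edgeR, and DESeq2 called 29.2%.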

How the data were processed

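The authors trimmed reads with Trim Galore, aligned them to WBcel235 with HISAT2 and counted them on WormBase genes with HTSeq at default settings, and the deposited counts are raw reads per gene. The deposited TPM values are Salmon estimates that the authors summed per gene. Fractions in the deposited quality table are shares of reads, and the same table names batches and marks the libraries used. What distinguishes the batches is not stated here, since the sources used do not agree on it. Whether the libraries keep strand is not given in the sources used here, so reads of overlapping genes on opposite strands may not be told apart.

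Stages came from the sample labels. Counts were tested with edgeR 4.0.16 (R 4.3.3, filterByExpr at a minimum count of 10, TMM factors, robust quasi-likelihood F test); covariates were batch and detection rate, the share of genes at 1 TPM or more. Before testing, 708 genes were left out, of which 652 track the msp genes. P-values were adjusted over all genes tested, and SE was taken as the absolute log2 change over the root of F. The members, the lists and the tests were chosen with earlier results of these data known. Other genes are named as the 2 largest called changes in each direction per list over neighboring stages, and further names were added after their values were seen. Alternatives were DESeq2 1.42.0, limma 3.58.1, other scaling, filters, libraries and covariates, each batch alone and worm as a block. Pairing comes from the worm named in the labels: deviations of same-worm libraries from their stage means had mean correlations of 0.069 to 0.299 over the 7 comparisons with such pairs, against -0.0202 to -0.00144 for other worms. The fits were tested on simulated counts with known changes. These held no batch, detection rate or worm effect, so they cannot show how the fits handle such effects. Python 3.11.15 was used for ratios and figures. Libraries of other labels were not used in comparisons. P-values treat libraries as replicates, and libraries of the same worm are not independent in the fits without the block.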

Additional observations from a re-analysis of the deposited data

Results flagged for a closer look

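In groups of 4 to 10 libraries, 20 tests for a value apart from the rest gave 3, where chance gives about 1 in 20 for independent tests of like libraries. These tests pooled both batches and used the same libraries for all 10 genes, and all 3 values came from batch B. That rate therefore need not hold here. In F3, the batch B oocyte of worm J stood at 430 CPM for ccf-1, against 213.3 to 275.4 CPM in the other 5 oocytes, and at 195 CPM for dcap-1, against 54.2 to 94.7 CPM. In P0, the batch B zygote of worm unknownB stood at 1470 CPM for ccr-4, against 63.3 to 152.3 CPM in the other 5 zygotes. The sample labels name this zygote P0, and its stage reads Unknown in the quality table, as does that of the other used batch B zygote.

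A batch by stage term was tested for 10 genes in 8 comparisons, adjusted over all genes, and 5 of these 80 passed, as did 3.39% of all 53514 such tests over all genes (15.4% from S3 to S4, 3.28% from F2 to F1, 3.31% from F1 to P0 and 1.16% from S1 to F1). For dcap-1 from S3 to S4 the term, batch B minus batch A, was 1.52 in log2 (edgeR adjusted p = 0.0282). Its median fell from 63.9 to 52.8 CPM in batch A and rose from 46.5 to 102.1 CPM in batch B. From F2 to F1 the term was 1.75 for ccr-4 (adjusted p = 0.0254), with medians of 146.8 and 110.8 CPM in batch A and 98.5 and 225 CPM in batch B. For ntl-4 it was 2.78 (adjusted p = 0.044), with 106.9 and 102 CPM against 0.969 and 52.3 CPM. From F1 to P0 it was -2.27 for dcap-2 (adjusted p = 0.0422), with 127.7 and 142.1 CPM in batch A and 29.3 and 7.71 CPM in batch B. From S1 to F1 it was -1.76 for ntl-2 (adjusted p = 0.0492), with 51.6 and 93.6 CPM in batch A and 109.4 and 125.7 CPM in batch B. Batch B held 2 to 5 libraries in each of these stages.

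All 10 genes had more than 3 reads in at least 1 of the 9 early embryo libraries, which enter no comparison here.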

How the results depend on the processing

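The number of the 10 genes called from S2 to S3 went from 0 (11.2% of all genes called) to 4 without the detection rate, under either scaling (31.8% and 31.5%) and in batch A alone (33.7%), to 3 with worm as a block and no detection rate (31.7%), to 2 in a fit of all 8 stages (18.4%) and to 1 with the detection rate taken from reads (20.6%). From S1 to F1 it went from 1 (23.8%) to 3 without the detection rate (59.2%) and also when the S1 library of worm 15 was left out, with or without that term (25.5% and 59.1%). It was 2 in batch A (26.1%), in the fit of all 8 stages (41.4%) and with the detection rate from reads (36.9%), 5 without the detection rate under median-of-ratios scaling (60.4%) or in batch A (62.6%), and 4 with worm as a block and no detection rate (49.8%). It was 0 in batch B (20.8%) and 0 with worm as a block and the detection rate (0%). Over all mapped libraries it was again 1 (39.4%), ccf-1 in place of dcap-2. From S1 to S2 it was 2 in batch A (19.5%) and 1 there without the detection rate (19.2%). It was 1 from S3 to S4 by limma (15.2%). From S4 to F3 it was 1 by limma (1.84%), in the fit of all 8 stages (2.39%), with worm as a block (8.75%), with the detection rate from reads (1.39%), and in batch A without it (3.58%). Across S1 to F1 it went from 3 (58%) to 7 without the detection rate (77%) and by limma (50%), to 4 by DESeq2, with median-of-ratios scaling and in batch A, to 2 over all mapped libraries (58.6%, without dcap-2) and to 1 with worm as a block (40.6%). No setting called a member from F3 to F2, from F2 to F1 or from F1 to P0. The change of xrn-1 from S1 to F1, 1.12 and not called, was -0.88 (adjusted p = 0.0163) in batch A without the detection rate. In batch B alone 3 ratio differences no longer passed: -2.02, 1.07 and -1.18. The causes were not tested. Fits that left out the detection rate together with another change, took it from reads, or left out the library of worm 15 were chosen after seeing the data. Leaving out each F3 or P0 library in turn kept the count at 0. The F3, P0 and batch B groups are small, and xrn-1 is thinly read, so changes there may be missed.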

Other observations

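The 9 early embryo libraries, described here as values only, gave wide ranges. ntl-2 had a median of 153 TPM (5.06 to 780.1), dcap-2 of 66.4 TPM (0.0641 to 157.7), ntl-3 of 64.6 TPM (9.07 to 724), dcap-1 of 32.6 TPM (0.819 to 242) and ccf-1 of 27.8 TPM (0 to 367). ccr-4 had 18.2 TPM, ntl-4 5.70 TPM, panl-2 5.39 TPM, ntl-1 1.54 TPM and xrn-1 0.971 TPM. Depths of these libraries differed widely: ntl-2 had 63 to 23898 reads in them.

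Another pair of libraries joins neighboring stages and belongs to none. In the one labelled F2F3S4, ntl-2 had 122.2 TPM (292 reads), dcap-1 51.2 TPM (119 reads), ccf-1 47.7 TPM (138 reads) and xrn-1 0.216 TPM (2 reads). In the one labelled S2S3, ntl-2 had 214.3 TPM (346 reads), ntl-1 149.5 TPM (654 reads), ccf-1 89.9 TPM (198 reads) and dcap-2 49.3 TPM (196 reads).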
